A study of Mus musculus with 6 samples.

Results

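The endoplasmic reticulum (ER) stress and Atf4 response was described across 35 genes, chosen by symbol as sensors, transcription factors, chaperones and targets of the unfolded protein response, of 47643 genes in the count table. All 35 were found and all 35 passed the filter on low counts. They were divided into an Atf4 arm of 11 genes, an Xbp1 arm of 12 and a chaperone arm of 12. Some genes answer to more than 1 branch, so each was placed by its best-known role. Messenger RNA was sequenced from intestines of male C57BL/6 mice, 7 to 8 weeks old. The 3 Myc-deleted samples are labelled MycΔIE, ERT2, in which tamoxifen triggers loss of Myc from the epithelium of the intestine. The 3 control samples are labelled Mycfl/fl, with floxed Myc alleles. Mice of both groups were injected with tamoxifen and kept for 2 weeks on a 60% HFD, a high-fat diet. The labels name neither the promoter of the recombinase nor whether controls carry one, so loss of Myc and activity of the recombinase cannot be told apart.

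Proteins that fail to fold in the ER set off 3 sensors. Eif2ak3 (PERK) phosphorylates the initiation factor eIF2, which slows translation and favours translation of Atf4. Ern1 (IRE1) splices the mRNA of Xbp1 into the form that encodes an active factor, and Atf6 is cut in the Golgi to release another. Atf4 raises genes of amino acid supply and of cell death, while Xbp1 and Atf6 raise chaperones and the machinery that returns misfolded proteins to the cytosol for degradation. Other kinases of eIF2 start the Atf4 branch without ER stress, and the secretory cells of the gut depend on the Xbp1 branch. Gene-level counts measure neither Xbp1 splicing nor translation of Atf4.

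Library totals ranged from 9956938 to 11328693 expected counts. Levels are CPM, counts scaled to library size with TMM factors, and a call is an adjusted p under 0.05 in the edgeR quasi-likelihood test of Myc-deleted over control. Myc itself stood at 3.29, 4.36 and 5.81 CPM in Myc-deleted libraries 1 to 3, against 5.86, 6.05 and 6.03 CPM in control libraries 1 to 3. It was not called (log2 fold change -0.41 ± 0.22 SE, edgeR adjusted p = 0.318), and Myc-deleted library 3 lay close to the controls, so its label is not checked by Myc. Results that rest on that library are given without it too. Vil1, a marker of the brush border, stood at 4023 to 4404 CPM in the Myc-deleted group and 3840 to 4503 CPM in the controls. The extraction protocol names liver, but Cyp2e1, a hepatocyte gene, had 0 counts in every Myc-deleted library and 1, 0 and 4 in control libraries 1 to 3. The summed level of 10 hepatocyte genes was 272 to 334 CPM in the Myc-deleted group and 254 to 288 CPM in the controls, most of it from Cps1 and Serpina1b. Of 5 tested genes of that list 2 were called lower, Alb at 10, 1 and 8 counts in Myc-deleted libraries 1 to 3 against 19, 37 and 27 in control libraries 1 to 3 (log2 fold change -2.15, edgeR adjusted p = 0.0326) and Tat (-1.46, 0.0276).

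Promoters of some of these genes carry known response elements, which are shown here by arm. The sequences are from RefSeq (GRCm38.p6), in windows from 250 bases before to 50 bases after each gene's start, which matched 30 of the 35 genes. The element bound by Atf4 dimers (CARE) was searched as TGATGNAA on both strands and stood in the windows of 5 of 10 Atf4 arm genes and 1 of 11 Xbp1 arm genes, against 4.51% of all 27025 genes with a window. The ER stress element (ERSE) was searched on both strands as CCAAT and CCACG with any 9 bases between them. It stood in 6 of 9 chaperone arm windows and 2 of 11 Xbp1 arm windows, against 0.137% of all genes. A related element, ERSE-II (ATTGG and CCACG with any 1 base between them, both strands), stood in Dnajb11 and Herpud1, against 0.0444% of all genes. Of the other letters searched, the E-box CACGTG that Myc dimers bind stood in 3 of 30 windows (Calr, Dnajb9 and Nupr1) against 8.09% of all genes, and the Xbp1 element TGACGTGG in 0 of 30 against 0.714%. No match overlapped another in these windows. Capitals mark the match, read 5′ to 3′ on the strand of the gene, in the 5 Atf4 arm genes with a CARE:

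Trib3: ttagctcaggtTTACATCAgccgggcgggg
Vldlr: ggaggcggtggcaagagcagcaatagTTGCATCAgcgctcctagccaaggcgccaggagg
Asns: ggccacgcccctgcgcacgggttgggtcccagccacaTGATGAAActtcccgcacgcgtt
Chac1: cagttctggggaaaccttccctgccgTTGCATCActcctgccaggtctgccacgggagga
Nupr1: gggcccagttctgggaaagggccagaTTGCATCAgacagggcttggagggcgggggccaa

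These stretches lie at chr2:152344028-152344057 on the minus strand (Trib3), chr19:27216794-27216853 on the plus strand (Vldlr), chr6:7693210-7693269 on the minus strand (Asns), chr2:119351023-119351082 on the plus strand (Chac1) and chr7:126625547-126625606 on the minus strand (Nupr1). In Vldlr, Chac1 and Nupr1 the capitals read the same 8 letters. The Trib3 match lies just after the RefSeq start, and the Vldlr stretch lies between the 2 RefSeq starts of that gene, in the window of the downstream one. Capitals mark the ERSE in Syvn1, Hspa5, Canx and Creld2 and the ERSE-II in Herpud1:

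Syvn1: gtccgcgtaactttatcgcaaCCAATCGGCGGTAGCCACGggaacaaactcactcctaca
Hspa5: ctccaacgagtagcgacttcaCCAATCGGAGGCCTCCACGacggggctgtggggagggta
Canx: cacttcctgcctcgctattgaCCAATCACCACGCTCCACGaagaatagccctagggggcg
Creld2: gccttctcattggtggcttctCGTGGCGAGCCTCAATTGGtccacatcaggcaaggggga
Herpud1: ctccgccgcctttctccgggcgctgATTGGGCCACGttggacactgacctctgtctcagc

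These lie at chr19:6046511-6046570 on the plus strand (Syvn1), chr2:34772004-34772063 on the plus strand (Hspa5), chr11:50325780-50325839 on the minus strand (Canx), chr15:88819499-88819558 on the plus strand (Creld2) and chr8:94386352-94386411 on the plus strand (Herpud1).

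Of the 35 genes, 4 rose in the Myc-deleted group and 0 fell. Over all 12720 tested genes 4.22% were called higher and 3.73% lower. The risers were Vldlr, Trib3 and Ddit3 of the Atf4 arm and Syvn1 of the Xbp1 arm. Fold changes ran from -0.31 to 1.13 on the log2 scale, with a median of 0.03, against -0.00213 over all tested genes. The median of the 35 was -0.0092 with upper-quartile scaling, -0.06 without Myc-deleted library 3 and -0.01 without control library 1. In these runs the median of all tested genes was -0.043, -0.0096 and -0.0028. The groups did not overlap in 8 of the 35, against 27.8% of all tested genes. At an unadjusted p under 0.05, 6 genes were higher and 3 lower in edgeR, against 11.7% and 10.4% of all tested genes. DESeq2 called 3 higher and 1 lower, and limma voom 3 and 0. The count of risers was 1 without Myc-deleted library 3, control library 1 or control library 2, 2 without Myc-deleted library 1 or 2, and 3 without control library 3. Trib3 was called in every one of these runs. In bulk tissue, fewer cells of a type and less RNA per cell cannot be told apart.

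**Figure D1:**
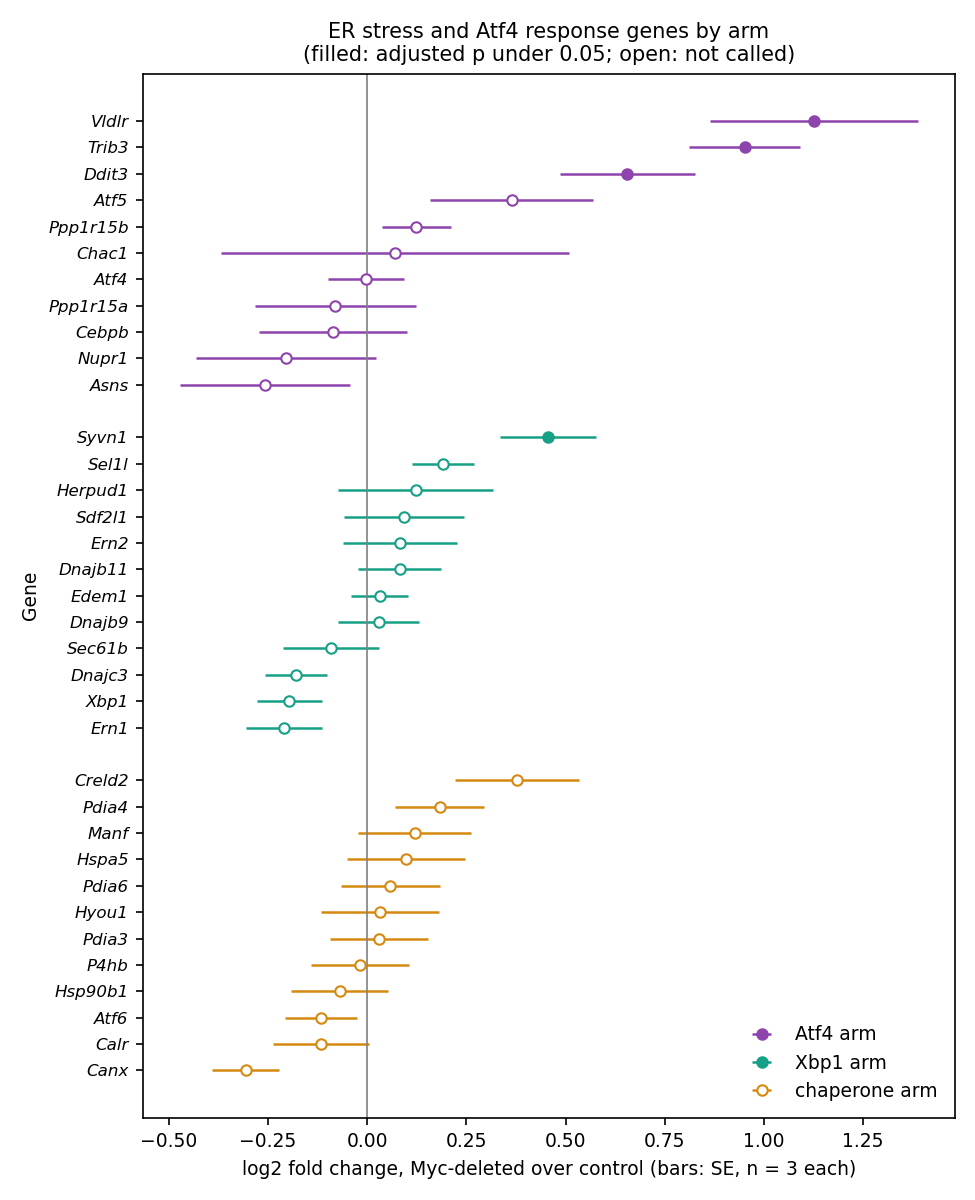
Log2 fold change of Myc-deleted over control for the 35 genes, ordered within each arm, with bars for the SE (3 libraries in each group) and filled points for genes called by edgeR. Filled points are Vldlr, Trib3 and Ddit3 in the Atf4 arm and Syvn1 in the Xbp1 arm, and every chaperone arm point is open.

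The Atf4 arm held 3 of the 4 risers (3 higher and 0 lower of 11), and its median log2 fold change was 0.07. At an unadjusted p under 0.05 edgeR gave 3 higher and 0 lower, and DESeq2 and limma voom each called 2 higher and 0 lower. The transcription factor gene Atf4 stood at 199, 196 and 227 CPM in Myc-deleted libraries 1 to 3 and 215, 224 and 184 CPM in control libraries 1 to 3. Its groups overlapped (log2 fold change -0.00414 ± 0.10 SE, adjusted p = 0.985), and its sign turned in 4 of 14 alternatives. Atf5, a related factor that is also controlled by translation, stood at 11.5, 10.8 and 17.7 CPM in Myc-deleted libraries 1 to 3. The controls stood at 8.55 to 11.8 CPM (0.36 ± 0.21, adjusted p = 0.341). Without Myc-deleted library 3 the log2 fold change of Atf5 was 0.10 (edgeR adjusted p = 0.797).

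Trib3 encodes a pseudokinase induced by Atf4 and by the factor CHOP. Trib3 (ENSMUSG00000032715.9, chromosome 2, 152337422 to 152344032, GRCm38) stood at 21.9, 25.2 and 20.7 CPM in Myc-deleted libraries 1 to 3, against 12.4, 9.60 and 13.1 CPM in control libraries 1 to 3. The lowest Myc-deleted library lay above the highest control. Trib3 rose 1.93-fold (log2 fold change 0.95 ± 0.14 SE, edgeR adjusted p = 0.00334). It was called in all 14 alternatives, and leaving out each library in turn gave adjusted p values of 0.00628 to 0.0173.

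Ddit3 encodes CHOP, the factor that turns a lasting stress response towards cell death. Ddit3 (ENSMUSG00000025408.15, chromosome 10, 127290774 to 127296288) stood at 17.2, 21.3 and 26.8 CPM in Myc-deleted libraries 1 to 3, against 11.9, 13.7 and 15.8 CPM in control libraries 1 to 3. The groups did not overlap, and Myc-deleted library 3 was the highest. Ddit3 rose 1.58-fold (0.66 ± 0.17 SE, edgeR adjusted p = 0.0450). It was called without Myc-deleted library 1 (adjusted p = 0.0151) but in none of the other runs that left out a library. In those the adjusted p was 0.103 without Myc-deleted library 2, 0.1205 (log2 fold change 0.47) without library 3, and 0.141, 0.154 and 0.0568 without control libraries 1 to 3. It also missed the threshold with limma voom (0.0575) and upper-quartile scaling (0.0562). Ddit3 lies across the antisense gene Mars, and whether counting used strand is not given in the sources used here. GENCODE M21 also lists another gene ID with the symbol Ddit3 on the same strand there, which was not analysed here. Mars itself averaged 22.4 CPM in the Myc-deleted group and 26.5 CPM in the controls (-0.24 ± 0.12 SE, edgeR adjusted p = 0.251).

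Vldlr encodes the very low density lipoprotein receptor, a target of the PERK and Atf4 branch in mouse liver. Vldlr (ENSMUSG00000024924.14, chromosome 19, 27216484 to 27254231) was the least abundant of the 35 per length and had 30 to 40 counts in Myc-deleted libraries and 15 to 18 in controls. It stood at 3.66, 2.79 and 3.60 CPM in Myc-deleted libraries 1 to 3, against 1.49, 1.56 and 1.53 CPM in control libraries 1 to 3. The groups did not overlap, and Vldlr rose 2.18-fold (1.13 ± 0.26 SE, edgeR adjusted p = 0.0281). Its log2 fold change stayed at 1.06 to 1.23 when any library was left out. The adjusted p was 0.0798 and 0.0904 without Myc-deleted library 1 or 3, 0.0490 without library 2, and 0.0835, 0.100 and 0.0777 without control libraries 1 to 3. DESeq2 gave 0.0587.

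The amino acid and redox genes of the arm were not called. Asns, which makes asparagine, stood at 11.5, 12.3 and 21.6 CPM in Myc-deleted libraries 1 to 3, against 17.4, 19.5 and 17.4 CPM in control libraries 1 to 3. Myc-deleted libraries 1 and 2 lay below every control and library 3 above (-0.26 ± 0.21, adjusted p = 0.533). Without Myc-deleted library 3 the log2 fold change was -0.61 and Asns was called lower (edgeR adjusted p = 0.0214). Chac1, which breaks down glutathione, had the same outlying library, at 1.37, 1.49 and 3.69 CPM in the Myc-deleted group and 1.39 to 2.85 CPM in the controls (0.07 ± 0.44, adjusted p = 0.947). Without that library its log2 fold change was -0.54 (adjusted p = 0.531). Nupr1, a stress-induced nuclear protein, stood at 7.69, 8.54 and 12.6 CPM in Myc-deleted libraries 1 to 3, against 9.30 to 14.3 CPM in the controls (-0.20 ± 0.23, adjusted p = 0.655, and -0.45 and 0.275 without Myc-deleted library 3). Myc-deleted library 3 held the highest Myc-deleted value of 7 of the 11 genes of the arm.

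The remaining genes of the arm are phosphatase subunits and a partner of Atf4. Ppp1r15a (GADD34), the induced subunit of the phosphatase that restores eIF2, stood at 13.1 to 18.8 CPM in the Myc-deleted group and 12.0 to 20.9 CPM in the controls (-0.08 ± 0.20, adjusted p = 0.860). Its constitutive counterpart Ppp1r15b stood at 275 to 311 CPM in the Myc-deleted group and 258 to 301 CPM in the controls (0.12 ± 0.09, adjusted p = 0.454). Cebpb, which dimerises with Atf4, stood at 4.76 to 6.09 CPM in the Myc-deleted group and 5.27 to 6.74 CPM in the controls (-0.09 ± 0.19, adjusted p = 0.835). The 6 genes with a CARE therefore comprised 2 risers and 4 uncalled genes, from -0.26 to 1.13, and Ddit3 had no match in its window.

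**Figure D2:**
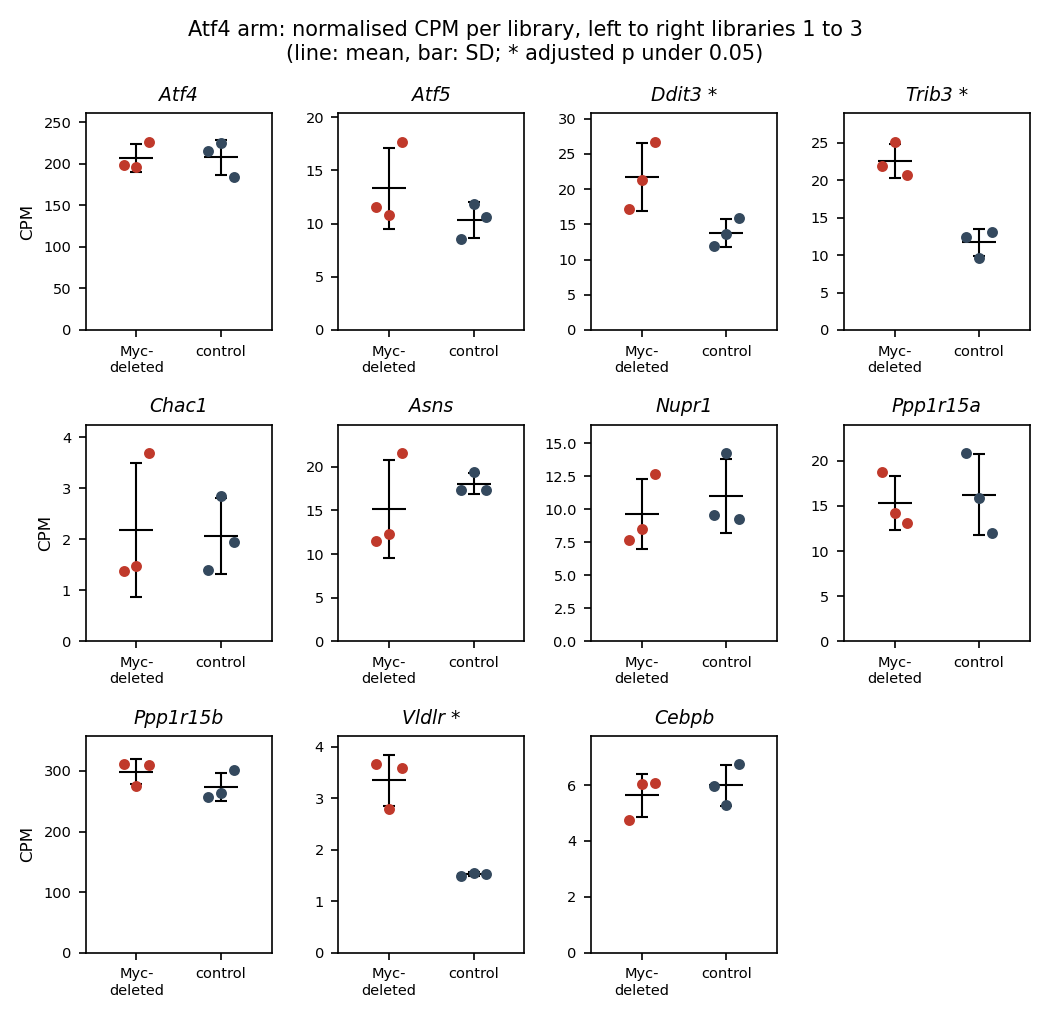
Normalised CPM of the 11 Atf4 arm genes, 1 panel a gene with its own axis from 0, Myc-deleted left and control right, points for libraries 1 to 3, a line for the mean and a bar for the SD. Trib3, Ddit3 and Vldlr have groups that do not overlap, while Asns, Chac1 and Nupr1 have 1 Myc-deleted library, number 3, above the other two.

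In the Xbp1 arm 1 of 12 genes rose and 0 fell, with a median log2 fold change of 0.06. At an unadjusted p under 0.05 edgeR gave 2 higher and 2 lower, and DESeq2 and limma voom each called 1 higher and 0 lower. The sensor and its factor were not among the risers. Xbp1 stood at 211, 183 and 204 CPM in Myc-deleted libraries 1 to 3, against 217, 224 and 243 CPM in control libraries 1 to 3. Each Myc-deleted library lay below each control, but Xbp1 was not called (-0.20 ± 0.08 SE, edgeR adjusted p = 0.198), nor in any of 14 alternatives. Ern1, which splices it, stood at 23.3 to 26.2 CPM in the Myc-deleted group and 25.9 to 29.4 CPM in the controls (-0.21 ± 0.10, adjusted p = 0.235). Ern2, the form of IRE1 found in gut epithelium, stood at 12.6 to 15.6 CPM in the Myc-deleted group and 11.5 to 15.3 CPM in the controls (0.08 ± 0.14, adjusted p = 0.792).

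Syvn1 encodes HRD1, the ubiquitin ligase that marks misfolded ER proteins for degradation. Syvn1 (ENSMUSG00000024807.17, chromosome 19, 6046576 to 6053712) stood at 187, 147 and 159.8 CPM in Myc-deleted libraries 1 to 3, against 110.3, 109 and 141 CPM in control libraries 1 to 3. The groups did not overlap, with control library 3 close to Myc-deleted library 2. Syvn1 rose 1.37-fold (0.46 ± 0.12 SE, edgeR adjusted p = 0.0488). It was called without control library 3 (adjusted p = 0.0232). Without Myc-deleted libraries 1 to 3 the adjusted p was 0.119, 0.0591 and 0.0868, and without control libraries 1 and 2 it was 0.157 and 0.206. With upper-quartile scaling it was 0.0611. Mrpl49 lies antisense to part of Syvn1 and averaged 19.6 CPM in the Myc-deleted group and 21.1 CPM in the controls (-0.10 ± 0.10 SE, edgeR adjusted p = 0.601).

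Sel1l, the partner that holds HRD1 stable, stood at 159, 149 and 163 CPM in Myc-deleted libraries 1 to 3, against 133, 131 and 148 CPM in control libraries 1 to 3. Every Myc-deleted library lay above every control, and the difference was not called (0.19 ± 0.08 SE, edgeR adjusted p = 0.186). Herpud1, an adaptor of the same complex, ranged widely within both groups, at 144 to 214 CPM in the Myc-deleted group and 119 to 201 CPM in the controls (0.12 ± 0.20, adjusted p = 0.773). Edem1, which carries misfolded glycoproteins to that complex, stood at 233 to 241 CPM in the Myc-deleted group and 220.2 to 246 CPM in the controls (0.03 ± 0.07, adjusted p = 0.850).

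The co-chaperones of the arm were not called. Dnajc3, a helper of BiP that also restrains PERK, stood at 132 to 139.7 CPM in the Myc-deleted group and 142 to 164 CPM in the controls. Its groups did not overlap (-0.18 ± 0.08 SE, edgeR adjusted p = 0.211). Dnajb9, a classical target of spliced Xbp1, stood at 33.5 to 40.1 CPM in the Myc-deleted group and 33.1 to 38.6 CPM in the controls (0.03 ± 0.10, adjusted p = 0.901). Dnajb11, Sdf2l1 and the translocon subunit gene Sec61b had log2 fold changes of 0.08, 0.09 and -0.09 with adjusted p values of 0.708, 0.779 and 0.716.

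**Figure D3:**
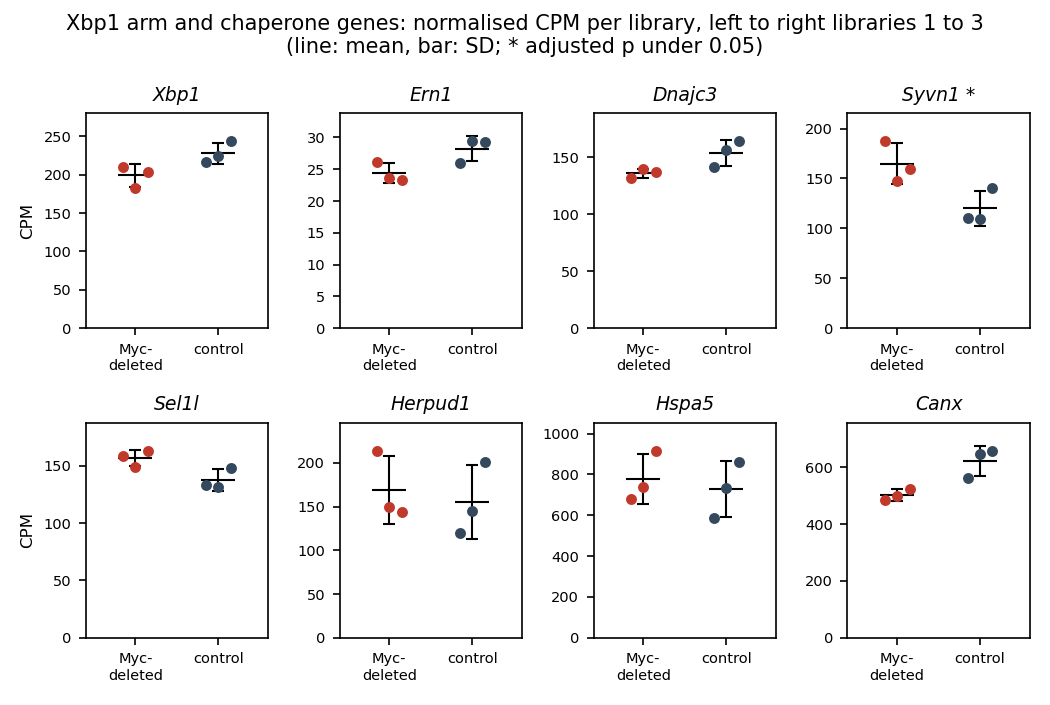
Normalised CPM of 6 Xbp1 arm genes and 2 chaperone arm genes, 1 panel a gene with its own axis from 0, Myc-deleted left and control right, points for libraries 1 to 3, a line for the mean and a bar for the SD. Syvn1 and Sel1l have every Myc-deleted library above every control, and Xbp1, Dnajc3 and Canx have every one below.

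In the chaperone arm 0 of 12 genes were called in either direction by edgeR, with a median log2 fold change of 0.03. With upper-quartile scaling that median was -0.01, against -0.043 over all tested genes. At an unadjusted p under 0.05 edgeR gave 1 higher and 1 lower, DESeq2 called 0 higher and 1 lower, and limma voom called none. The groups overlapped in all of them but Canx. Summed over the 12 genes, the arm stood at 5205, 5924 and 6698 CPM in Myc-deleted libraries 1 to 3, against 5425, 6030 and 6831 CPM in control libraries 1 to 3. The libraries of 1 group thus differed by more than the group means, which were 5942 ± 747 CPM in the Myc-deleted group and 6095 ± 705 CPM in the controls (SD, n = 3 each). Control library 1 was the lowest and control library 3 the highest control for 12 of 12 genes, and Myc-deleted library 1 was the lowest and library 3 the highest of its group for 10 of 12 each.

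Hspa5 encodes BiP, the chaperone that holds the 3 sensors inactive and whose mRNA is the usual reporter of ER stress. It stood at 680.3, 739.7 and 916 CPM in Myc-deleted libraries 1 to 3, against 587, 732 and 862 CPM in control libraries 1 to 3. The groups overlapped throughout (0.10 ± 0.15 SE, edgeR adjusted p = 0.758). Hsp90b1 (GRP94) averaged 639 ± 109.96 CPM in the Myc-deleted group and 671 ± 51.9 CPM in the controls (-0.07 ± 0.12, adjusted p = 0.791). Hyou1, which exchanges the nucleotide of BiP, averaged 172 ± 16.9 CPM in the Myc-deleted group and 169 ± 39.6 CPM in the controls (0.03 ± 0.15, adjusted p = 0.927). Atf6, the sensor that drives these promoters, stood at 59.2 to 65.5 CPM in the Myc-deleted group and 60.9 to 74.3 CPM in the controls (-0.12 ± 0.09, adjusted p = 0.506).

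The calnexin gene Canx, a membrane-bound lectin chaperone of glycoproteins, stood at 484, 498 and 524 CPM in Myc-deleted libraries 1 to 3, against 561, 645 and 657 CPM in control libraries 1 to 3. All 3 Myc-deleted libraries were below the 3 controls. Canx missed the threshold (-0.31 ± 0.09 SE, edgeR adjusted p = 0.0576) but was called lower by DESeq2 (0.0210), with upper-quartile scaling (0.0346), without a filter on low counts (0.0435) or with a minimum count of 30 (0.0498), and without control library 1 (0.0479). Calr, its soluble relative, stood at 923 to 1214 CPM in the Myc-deleted group and 1022 to 1268 CPM in the controls (-0.12 ± 0.12, adjusted p = 0.627).

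Among the secreted and redox members, Creld2 had the largest positive fold change of the arm, at 52.2, 55.9 and 69.5 CPM in Myc-deleted libraries 1 to 3, against 37.8, 42.2 and 56.9 CPM in control libraries 1 to 3. Control library 3 lay above Myc-deleted libraries 1 and 2 (0.38 ± 0.16 SE, edgeR adjusted p = 0.190), and without it Creld2 was called higher (0.57, adjusted p = 0.0478). Creld2 was called in no other run that left out a library. Its log2 fold change was 0.24 (edgeR adjusted p = 0.442) without Myc-deleted library 3 and 0.26 (0.428) without control library 1. Manf, a factor released under ER stress, averaged 139 ± 25.4 CPM in the Myc-deleted group and 128 ± 19.7 CPM in the controls (0.12 ± 0.14, adjusted p = 0.682). The disulfide isomerase genes Pdia3, Pdia4, Pdia6 and P4hb had log2 fold changes of 0.03, 0.18, 0.06 and -0.02, with adjusted p values of 0.386 to 0.954. P4hb was the most abundant of the 35 genes per length, at 598 CPM per kilobase of exon in the Myc-deleted group and 605 in the controls. The 8 genes with an ERSE comprised 1 riser, Syvn1, and 7 uncalled genes, from -0.31 to 0.46.

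**Figure D4:**
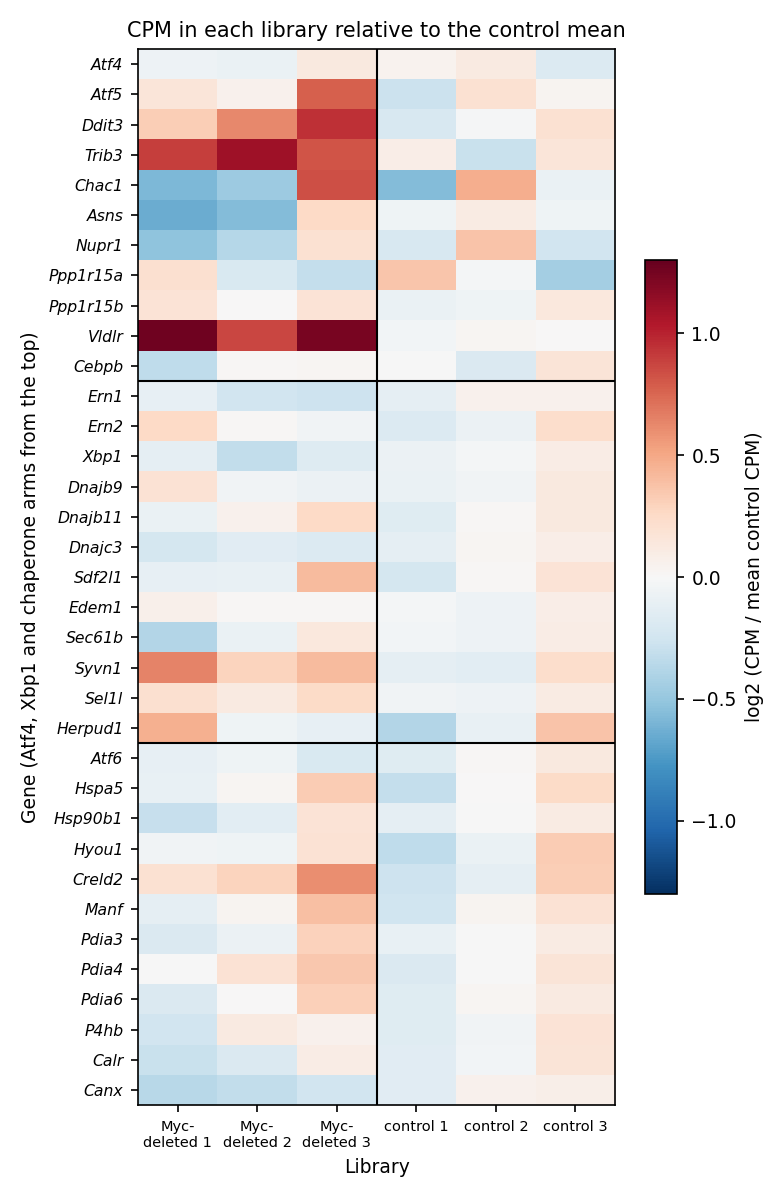
Log2 ratio of CPM in each library to the mean of the controls for the 35 genes in rows, by arm, with Myc-deleted libraries left of control libraries. Trib3, Ddit3 and Vldlr are raised in all 3 Myc-deleted libraries, and the chaperone rows are lowest in library 1 and highest in library 3 for 12 of 12 genes in the controls and 10 of 12 in the Myc-deleted group.

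Side by side, the arms gave 3 of 11 (Atf4), 1 of 12 (Xbp1) and 0 of 12 (chaperone) genes higher and 0 lower. The shares over all tested genes were 4.22% higher and 3.73% lower, or 11.7% and 10.4% at an unadjusted p under 0.05. The medians of the 3 arms were 0.07, 0.06 and 0.03. Across the runs that left out a library the median ran from 0.02 (without Myc-deleted library 3) to 0.17 in the Atf4 arm, from -0.01 to 0.12 in the Xbp1 arm and from -0.07 to 0.11 in the chaperone arm. With limma voom the Atf4 arm median was -0.0019, against -0.0025 over all tested genes. Their mean log2 CPM differed between the groups (Myc-deleted minus control) by 0.22, 0.03 and 0.02, against SDs between libraries of 0.16, 0.11 and 0.18. The mean of the Atf4 arm was 3.97, 3.98 and 4.34 in Myc-deleted libraries 1 to 3 and 3.82, 3.96 and 3.87 in control libraries 1 to 3. No test of a difference between arms was made.

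Of 130 other genes of the pathway, 126 passed the filter. Of these, 4 rose and 2 fell, against 4.22% called higher and 3.73% lower over all tested genes. The median log2 fold change of the 126 was -0.00397, against -0.00213 over all tested genes. Among 25 tested genes listed as other targets of Atf4, 2 rose and 0 fell. Log2 fold changes were positive for 14 of them and negative for 11, with a median of 0.08. At an unadjusted p under 0.05 edgeR gave 5 higher and 3 lower, against 11.7% and 10.4% of all tested genes. DESeq2 called 1 higher and 0 lower, limma voom 2 and 0, and edgeR without Myc-deleted library 3 called 1 and 0. Without control library 3 edgeR called 3 and 0, the added gene being Gdf15 (2.27, adjusted p = 0.0449), named after its values were seen. Gdf15 had 17, 15 and 13 counts in Myc-deleted libraries 1 to 3 and 3, 3 and 11 in control libraries 1 to 3. With all libraries it was not called (1.32, edgeR adjusted p = 0.174). Without Myc-deleted library 2 edgeR called 1 and 1, the lower gene being Shmt2 (-0.71, adjusted p = 0.0315), named after its values were seen. Of the 25, 5 had every Myc-deleted library above every control and 5 had every one below. Over all tested genes these shares were 14.0% and 13.7%. Tnfrsf10b encodes a death receptor that CHOP and p53 both raise. It stood at 14.4, 15.04 and 15.9 CPM in Myc-deleted libraries 1 to 3, against 6.36, 7.95 and 6.64 CPM in control libraries 1 to 3 (1.11 ± 0.13 SE, edgeR adjusted p = 0.00156). Jdp2, a factor of the AP-1 family, stood at 5.39 to 6.64 CPM in the Myc-deleted group and 2.51 to 4.29 CPM in the controls (0.87 ± 0.23, adjusted p = 0.0491) and missed the threshold in every run that left out a library except that without control library 3. The abundant targets Slc3a2 (0.16 ± 0.09), Sqstm1 (0.17 ± 0.08) and Map1lc3b (-0.20 ± 0.07) were not called.

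Of 14 eIF2 subunits, exchange factors and kinases, 1 rose. Eif2ak2 (PKR), an eIF2 kinase that senses double-stranded RNA and is itself induced by interferon, stood at 52.6, 50.7 and 68.3 CPM in Myc-deleted libraries 1 to 3, against 41.6, 30.5 and 40.2 CPM in control libraries 1 to 3 (0.61 ± 0.14 SE, edgeR adjusted p = 0.0304). Its adjusted p was 0.0796 (log2 fold change 0.46) without Myc-deleted library 3, 0.117 without control library 2 and 0.0616 without control library 3. Eif2ak3 (PERK), named after its values were seen, stood at 44.3 to 56.9 CPM in the Myc-deleted group and 52.4 to 61.4 CPM in the controls (-0.24 ± 0.11, adjusted p = 0.242). Eif2s2 (-0.31 ± 0.18), Eif2ak1 (-0.00227 ± 0.08) and Eif2s3x (-0.15 ± 0.09) were not called. Without Myc-deleted library 3, Eif2s2 was called lower (-0.60, adjusted p = 0.00960).

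Of 9 other factors of the ER and of secretory cells and their proteases, Creb3l3 (CREB-H), an ER-tethered factor of lipid metabolism in liver and small intestine, rose. It stood at 502, 546 and 419.7 CPM in Myc-deleted libraries 1 to 3, against 322, 284 and 362 CPM in control libraries 1 to 3 (0.60 ± 0.12 SE, edgeR adjusted p = 0.0130). Its adjusted p was 0.0553 without Myc-deleted library 2 and 0.0739 without control library 2. Mbtps1, a protease that cuts Atf6, and the factors Creb3 and Atf6b had log2 fold changes of -0.11, 0.12 and -0.11 and were not called. Of 21 other degradation genes edgeR called 0, with 2 higher and 0 lower at an unadjusted p under 0.05 and 0 called by DESeq2 or limma voom. Vcp and Os9, both abundant, had log2 fold changes of -0.11 and 0.15.

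Of 24 tested other folding genes 1 fell and 0 rose. At an unadjusted p under 0.05 edgeR gave 3 higher and 1 lower, against 11.7% and 10.4% of all tested genes. Sil1, the nucleotide exchange factor of BiP, stood at 10.98, 10.2 and 13.3 CPM in Myc-deleted libraries 1 to 3, against 18.2, 16.2 and 20.4 CPM in control libraries 1 to 3. The groups did not overlap (-0.66 ± 0.14 SE, edgeR adjusted p = 0.0180). The adjusted p was 0.0658 without Myc-deleted library 2 and 0.0544 and 0.0643 without control libraries 1 and 3. Ero1l, named after its values were seen, was not called (0.43, edgeR adjusted p = 0.0972). It was called higher without a filter on low counts (0.0387), with the replicate number as a block (0.0496) and without Myc-deleted library 1 (0.0311). Without Myc-deleted library 3 its log2 fold change was 0.25 (edgeR adjusted p = 0.224). Agr2 (0.26 ± 0.13), Sdf4 (0.09 ± 0.07) and Ganab (0.01 ± 0.08) were not called. Of 33 genes of translocation and signal processing 26 had a negative fold change (median -0.08), against 6390 of 12720 tested genes, and 1 fell. This was Krtcap2, a subunit of the oligosaccharyltransferase, at 19.2 to 24.9 CPM in the Myc-deleted group and 27.2 to 33.8 CPM in the controls (-0.47 ± 0.12, edgeR adjusted p = 0.0450). Krtcap2 missed the threshold in each run that left out a library other than Myc-deleted library 3, with adjusted p values up to 0.140. Without Myc-deleted library 3, 3 genes of the list were called lower, Krtcap2 and, named after their values were seen, Ssr4 (-0.39, adjusted p = 0.0334) and Sec61g (-0.35, 0.0490). Sec61a1, Rpn2 and Rpn1 had log2 fold changes of -0.16, 0.00569 and -0.07.

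**Figure D5:**
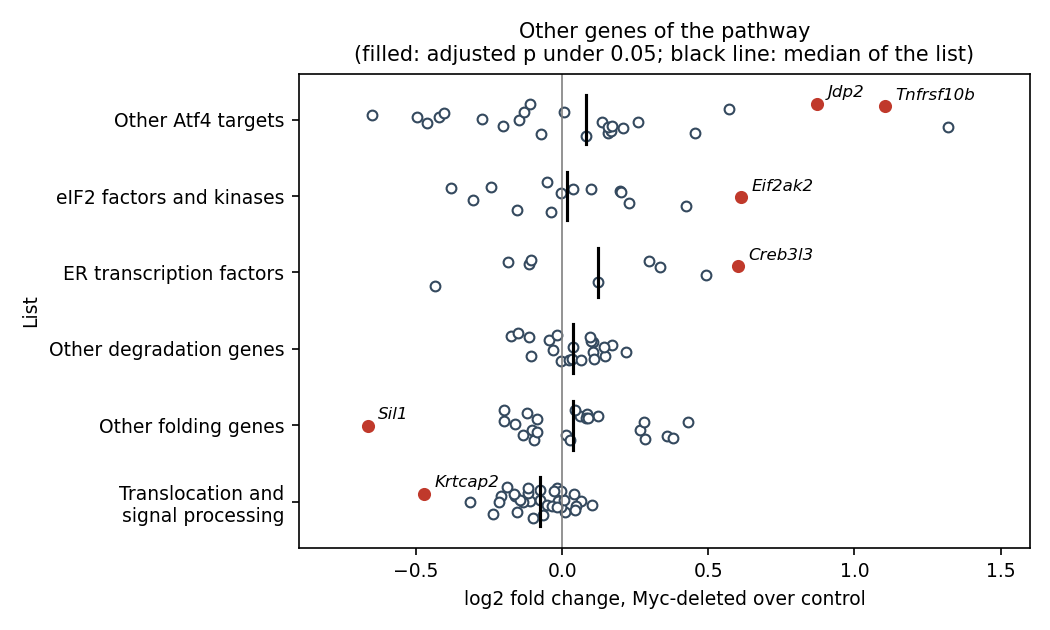
Log2 fold change of Myc-deleted over control for 126 other genes of the pathway in 6 lists, with a black line at the median of each list and filled points for genes called by edgeR. Tnfrsf10b, Jdp2, Eif2ak2 and Creb3l3 lie to the right of 0 and Sil1 and Krtcap2 to the left, while no degradation gene is filled.

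Secretory cells carry much of the ER machinery, so their markers are given beside these results. The summed level of 10 plasma cell genes was 3016 to 3424 CPM in the Myc-deleted group and 2282 to 2766 CPM in the controls, without overlap. Of 9 tested plasma cell genes edgeR called 0, with 3 higher and 0 lower at an unadjusted p under 0.05, DESeq2 called 1 higher and limma voom 0. The sum was mostly Igha, the heavy chain of IgA, at 1530 to 1794 CPM in the Myc-deleted group and 1056 to 1396 CPM in the controls, and Igkc. Ighm, Irf4 and Pou2af1 had negative log2 fold changes (-0.36, -0.42 and -0.08). Goblet cell genes summed to 20678 to 21879 CPM in the Myc-deleted group and 21506 to 22046 CPM in the controls, and Paneth cell genes summed to 1707 to 2747 CPM in the Myc-deleted group and 1198 to 2038 CPM in the controls, with 0 of 8 called by edgeR in each list. At an unadjusted p under 0.05, 2 goblet and 4 Paneth genes were higher and 0 lower, and DESeq2 called 1 goblet gene higher and limma voom 0 in either list. Enterocyte genes summed to 56554 to 62918 CPM in the Myc-deleted group and 47522 to 53007 CPM in the controls. Of the 10, 2 were called higher, Fabp2 and Apoa1, against 4.22% of all tested genes. Log2 fold changes were positive for 7, with Vil1 at 0.02, and negative for 3, Anpep (-0.11), Fabp6 (-0.06) and Sis (-0.01). Leukocyte genes summed to 156 to 161 CPM in the Myc-deleted group and 167 to 227 CPM in the controls. Of these 1 of 8 was called lower, against 3.73% of all tested genes. Smooth muscle genes summed to 24.8 to 29.9 CPM in the Myc-deleted group and 24.8 to 104 CPM in the controls, the highest in control library 2. For these edgeR called 0 of 8, with 3 lower at an unadjusted p under 0.05, DESeq2 called 1 lower and limma voom 0. Pancreatic acinar genes summed to 6.86 to 8.08 CPM in the Myc-deleted group and 3.47 to 3.89 CPM in the controls, and 5 of the 10, Cpa1 and Pnlip among them, were at 0 in every library. Nearly all of the sum was Cela1, the 1 gene of the list that was tested, which was called higher (1.10, edgeR adjusted p = 0.00550). The part of these cell types in the results above was not tested.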

How the data were processed

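The deposited table holds expected counts per gene for 6 libraries, made by the authors with cutadapt, STAR, Picard and RSEM on the mouse build mm10, per the submitters' processing notes, and not scaled between libraries. The sources used here give no tool versions and no counting strand. Libraries were stranded mRNA preparations, per the labels. Of 47643 genes, 99.1% matched an Ensembl identifier of GENCODE M21 (GRCm38).

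Values were rounded to whole numbers. In edgeR 4.0.16 (R 4.3.3), filterByExpr kept genes by a count minimum of 10 and a total of 15, TMM set the scaling, and the quasi-likelihood F-test compared the Myc-deleted group with the controls. P-values were adjusted by Benjamini-Hochberg over all 12720 tested genes, with a threshold of 0.05. Each SE was derived from the fold change and its F statistic (size divided by root F). Log2 CPM used a prior count of 2. Per-length levels used the union of exons. The labels do not say that samples of a group are separate animals, so p-values measure the spread between these samples, which may be technical. A count of 0 allows up to 3 counts, or 0.259 to 0.306 CPM, for counting error only.

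The members and lists were chosen with earlier results of these data known. All members are named, and of each other list the called genes and up to 3 abundant uncalled ones; 1 gene that this rule names is not reported here. Alternatives were RLE and upper-quartile scaling, TMM without ribosomal protein genes, DESeq2 1.42.0, limma 3.58.1 voom, 2 other filters, the replicate number as a block and each library left out. The procedure was tested on simulated data, in which false calls exceeded the share the threshold sets and many small changes were missed.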

Additional observations from a re-analysis of the deposited data

How the results depend on the processing

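Counts of 4 genes higher and 0 lower, of 35, depended on the processing, since Ddit3, Vldlr and Syvn1 lay near the threshold. With upper-quartile scaling 2 were higher and 1 lower, and the Xbp1 arm had 0 higher and the chaperone arm 1 lower. DESeq2, no filter on low counts and a minimum count of 30 each gave 1 lower gene, in the chaperone arm (Canx). Leaving out each library in turn gave 1 to 3 members higher and 0 to 1 lower. By arm it gave 1 to 2 higher and 0 to 1 lower (Atf4), 0 to 1 higher (Xbp1), and 0 to 1 higher and 0 to 1 lower (chaperone). Over all genes it gave 229 to 503 higher and 233 to 447 lower, against 537 and 474. Fewer libraries enter those fits, and beyond that the cause was not tested. Medians moved by less than the SD between libraries in every setting. No gene of the pathway that was called turned its sign. With the replicate number as a block the chaperone arm had 1 higher gene, Creld2 (0.39, adjusted p = 0.0286), the members stayed at 4 higher, and Vldlr missed the threshold (0.0560). Deviations of same-numbered libraries correlated at 0.0261, 0.0524 and 0.0189, and each library correlated best with its own number. Correlations this weak cannot settle whether the numbers pair the samples. Myc was not called in any alternative (adjusted p = 0.141 to 0.580).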
